A study of Mus musculus with 4 samples.

Results

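The genes described here are 33 genes of the integrated stress response and of amino acid metabolism: 14 genes for ATF4 and its regulators and targets, 7 enzymes of serine, one-carbon and proline metabolism, and 12 cytosolic aminoacyl-tRNA synthetases. They were chosen by name with earlier results of these data known, and all 33 were among the 55401 genes of the deposited count table. The libraries are poly(A) RNA-seq of mouse bone marrow-derived macrophages, cells grown out of C57BL/6J bone marrow. In 2 libraries the marrow cells had received CRISPR-Cas9 lentivirus targeting Adcy7, a gene for an enzyme that makes cyclic AMP, and in 2 control libraries the lentivirus targeted Rosa. All 4 shared the lentiviral Cas9, the multiplicity of infection of 30, the infection on day 1, the differentiation of 5 days and the batch. The labels do not say which part of Adcy7 was cut, whether cells were cloned or selected, or the age or sex of the mice. They also do not say whether the 2 libraries of a group came from separate cultures or mice, so the p-values cover the spread among these 4 libraries alone, and that spread may be technical.

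ATF4 is a transcription factor whose mRNA is translated well when the initiation factor eIF2 is phosphorylated, while most other translation falls. The kinases that phosphorylate eIF2 sense amino acid shortage, unfolded proteins in the endoplasmic reticulum, double-stranded RNA or lack of heme. ATF4 pairs with other bZIP factors, many of the C/EBP family, and induces genes for amino acid synthesis, amino acid transport and tRNA charging, together with feedback inhibitors of the response. Aminoacyl-tRNA synthetases attach each amino acid to its tRNA, with separate nuclear genes for most of the cytosolic and mitochondrial enzymes. In macrophages, cyclic AMP made by adenylyl cyclases is known to restrain inflammatory gene expression.

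ATF4 heterodimers are known to bind the C/EBP-ATF response element, searched here on both strands as TGATGNAA, in which N is any base, in a window of 250 bases before to 50 bases after each RefSeq start (build GRCm38.p6). A window was found for 28 of the 33 genes, with none for Eif4ebp1, Cars1, Lars1, Nars1 and Wars1. The motif lay in the windows of 11 of these 28 genes (39.3%), against 4.51% of all 27025 genes with a window and 3.97% of all 32851 windows. The list holds ATF4 targets by choice, so this contrast only describes the list and was not tested. By group it was found for 5 of 13 genes of ATF4 and its response, 1 of 7 metabolic enzymes and 5 of 8 listed synthetases (62.5%). The stricter form TGATGCAA, which TGATGNAA contains, was found for 8 of the 28 genes (28.6%), against 1.03% of all genes. A match for each of the 11 genes is printed below with the motif in capitals, since this allows each gene's measured change to be read beside its own site. Each is shown 5′ to 3′ on the strand that reads TGATGNAA, and the position is that of the first motif base along the gene, where 1 is the RefSeq start and -1 the base before it. Not every match is shown, so the stricter form cannot be counted from these lines. The feedback genes, amino acid enzymes and stress genes come first, then the synthetases.
Trib3, chr2:152344028-152344057, plus strand, position 15: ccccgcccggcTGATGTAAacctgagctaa
Chac1, chr2:119351038-119351067, minus strand, position -193: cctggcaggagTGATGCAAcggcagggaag
Asns, chr6:7693214-7693243, minus strand, position -23: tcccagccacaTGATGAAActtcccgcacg
Nupr1, chr7:126625562-126625591, plus strand, position -110: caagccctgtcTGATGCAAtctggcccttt
Vldlr, chr19:27216809-27216838, minus strand, position -200: gctaggagcgcTGATGCAActattgctgct
Pycr1, chr11:120643833-120643862, minus strand, position -103: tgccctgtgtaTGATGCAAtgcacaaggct
Aars1, chr8:111033840-111033869, minus strand, position 10: tcagagcgctcTGATGAAAagtgacccgct
Gars1, chr6:55037960-55037989, minus strand, position -30: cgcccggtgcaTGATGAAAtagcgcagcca
Iars1, chr13:49682126-49682155, minus strand, position 8: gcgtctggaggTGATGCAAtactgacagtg
Tars1, chr15:11399655-11399684, plus strand, position -15: agctaaccagcTGATGCAAcgggactcctg
Yars1, chr4:129189895-129189924, plus strand, position 4: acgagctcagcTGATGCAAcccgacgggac
A match is a description of letters in a window. A window without one says nothing of binding outside it.

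The deposited totals were 71914179 and 61782358 counts for the Adcy7 knockout and 65766496 and 69874955 counts for Rosa. Adcy7 itself was at 59.4 and 58.8 CPM (counts scaled to a common library total) in the knockout libraries, against 122 and 125 CPM in the Rosa libraries. Its log2 fold change was -1.05 ± 0.09 (SE, adjusted p = 4.6e-06), so its mRNA remained at 48.4% of the Rosa level. Editing of the gene, its protein and cyclic AMP were not measured here. All 10 macrophage markers had counts in the table, and their summed level was lower in both knockout libraries (23350 and 23134 CPM) than in both Rosa libraries (58178 and 60118 CPM). Summed markers of eosinophils (298 and 240.2 CPM in knockout, 34.5 and 31.5 CPM in Rosa), of mast cells and basophils (119.8 and 113.5 CPM in knockout, 37.5 and 28.3 CPM in Rosa), of platelets (492 and 432 CPM in knockout, 217 and 201 CPM in Rosa), of erythroid cells (26.4 and 21.1 CPM in knockout, 3.25 and 2.78 CPM in Rosa) and of stromal cells (60.8 and 63.9 CPM in knockout, 18.8 and 18.9 CPM in Rosa) were higher in both knockout libraries. These lists hold 9, 10, 12, 9 and 10 genes, and in each of the mast cell, erythroid and stromal lists 1 gene was at 0 throughout (Cma1, Slc4a1 and Lepr). The neutrophil sums overlapped between the groups, at 5244 and 6709 CPM in knockout and 7153 and 5862 CPM in Rosa. Sums for B cells (135 and 137.5 CPM in knockout, 166 and 165 CPM in Rosa), T and NK cells (2.95 and 2.51 CPM in knockout, 4.29 and 3.48 CPM in Rosa) and dendritic cells (755 and 716.5 CPM in knockout, 708 and 668.5 CPM in Rosa) moved less. The part of these cell types in the results that follow was not tested. In bulk RNA, a change in the share of a cell type and a change in RNA per cell cannot be told apart.

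All 33 genes passed the filter on low counts and were tested. In the knockout libraries 25 of the 33 rose, 2 fell and 6 did not pass the test (edgeR quasi-likelihood test, Benjamini-Hochberg adjusted over 15832 genes, threshold 0.05). Over all tested genes 25.0% rose, 24.6% fell and 49.6% passed in either direction. At least 2-fold higher and past the threshold were 12 of the 33 genes, against 11.8% of all genes. The groups did not overlap for any of the 33: 28 had both knockout libraries above both Rosa libraries, against 37.4% of all genes, and 5 had both below, against 37.8%. The median log2 fold change, knockout over Rosa, was 0.55 for the 33 genes and 0.02 for all tested genes. An exact permutation test of 2 against 2 libraries cannot give a two-sided p below 0.333, so each call rests on the spread that edgeR estimates across genes. The 3 groups of genes moved differently: a median of 1.45 for ATF4 and its response, -0.11 for the metabolic enzymes and 0.46 for the synthetases.

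Among ATF4, its regulators and its targets, 12 of 14 genes rose, 10 of them at least 2-fold, and none fell. The mRNA of Atf4 itself was at 409.5 and 404 CPM in knockout libraries and 195 and 181 CPM in Rosa libraries, with a log2 fold change of 1.13 ± 0.09 (SE; adjusted p = 1.76e-06). The ATF4 protein was not measured. Atf5, a related bZIP factor under the same kind of translational control, was at 189 and 175 CPM in knockout libraries and 33.3 and 30.9 CPM in Rosa libraries, 5.74-fold higher (log2 fold change 2.52 ± 0.10, adjusted p = 1.31e-08). Ddit3, which encodes CHOP, a bZIP factor of prolonged stress, was at 73.4 and 69.2 CPM in knockout libraries and 15.01 and 12.04 CPM in Rosa libraries (log2 fold change 2.42 ± 0.13, adjusted p = 6.9e-08). Its annotated exons share 68 bases with those of Mars1 on the opposite strand, and the library method as described names no strand marking. Cebpg, a C/EBP factor that pairs with ATF4, was at 43.5 and 43.9 CPM in knockout libraries and 43.1 and 36.5 CPM in Rosa libraries. That difference did not pass the test (log2 fold change 0.15 ± 0.11, adjusted p = 0.279). In all, 3 of the 4 bZIP factors rose, by 2.19-fold to 5.74-fold.

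Of the 5 genes that feed back on the response or on growth, 4 rose. Trib3, a pseudokinase that restrains ATF4 and AKT, had the largest fold change of the 33 genes. It was at 107 and 102 CPM in knockout libraries and 9.20 and 8.27 CPM in Rosa libraries, 12.1-fold higher (log2 fold change 3.60 ± 0.12, adjusted p = 2.67e-09). Its match to the response element, shown above, has T at the free base. The bases checked after that RefSeq start matched no annotated Trib3 transcript, so the position holds for the RefSeq start alone. Ppp1r15a, which encodes GADD34, the subunit that directs a phosphatase to eIF2, was at 137 and 131 CPM in knockout libraries and 42.3 and 42.2 CPM in Rosa libraries (log2 fold change 1.68 ± 0.10, adjusted p = 1.53e-07). Ddit4, which encodes the mTORC1 inhibitor REDD1, was at 113 and 116 CPM in knockout libraries and 31.0 and 28.1 CPM in Rosa libraries (log2 fold change 1.97 ± 0.10, adjusted p = 5.71e-08). Eif4ebp1, an inhibitor of cap-dependent translation, was at 239 and 213.5 CPM in knockout libraries and 95.6 and 100.7 CPM in Rosa libraries (log2 fold change 1.22 ± 0.10, adjusted p = 2.67e-06). Sesn2, a leucine sensor that also restrains mTORC1, did not move with them. It was at 53.3 and 49.9 CPM in knockout libraries and 65.8 and 57.9 CPM in Rosa libraries, a difference that did not pass the test (log2 fold change -0.24 ± 0.10, adjusted p = 0.075). With the replicate number as a block its adjusted p was 0.0491, and without the first knockout library 0.0275; over all alternatives it ran from 0.0275 to 0.467.

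**Figure D1:**
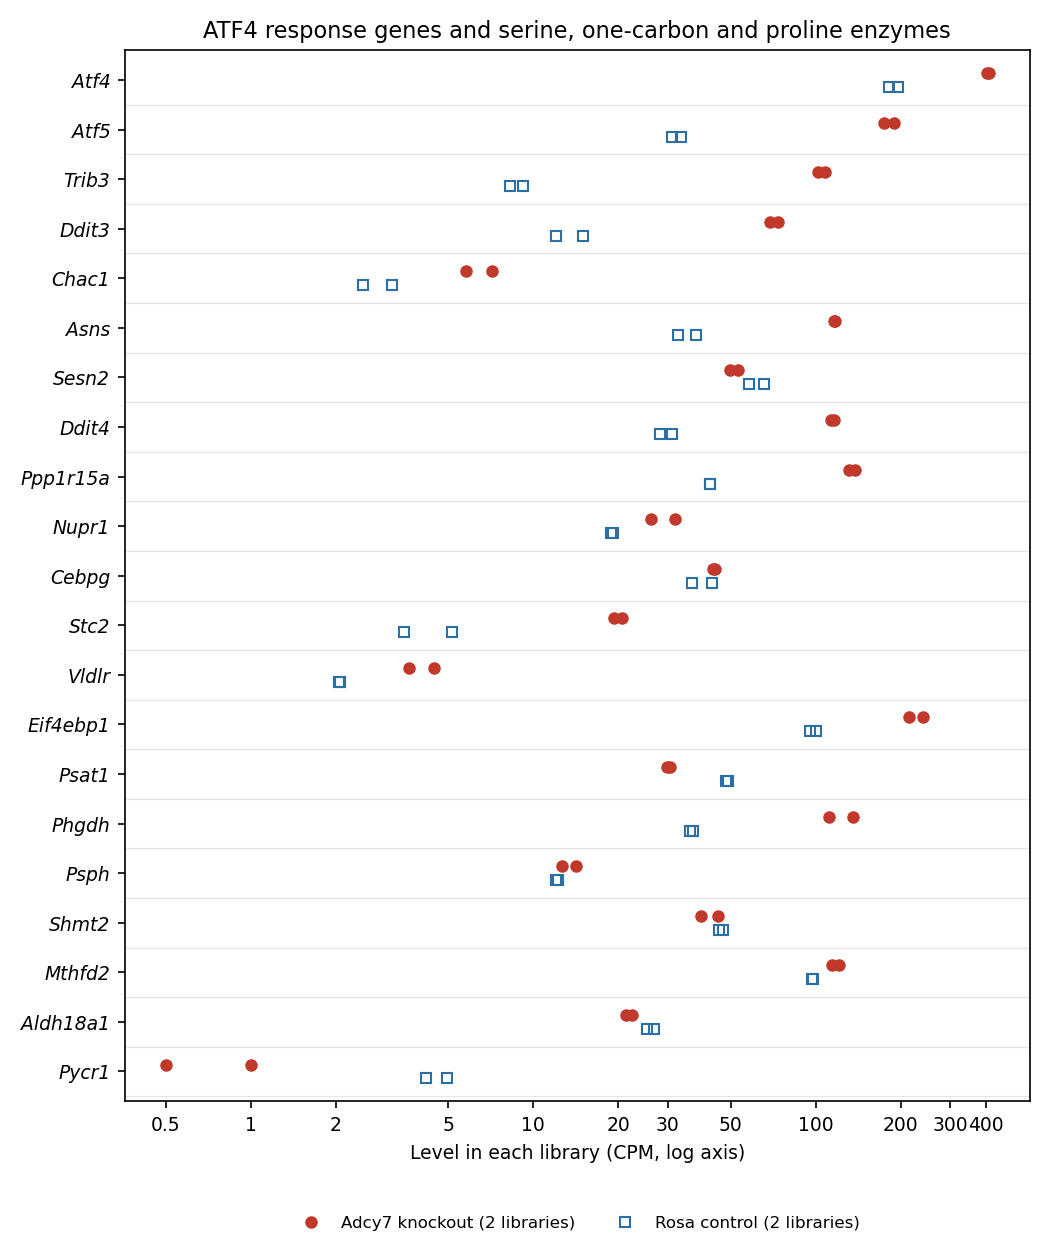
Level of each of the 14 ATF4 response genes and 7 metabolic enzymes in each library, in CPM on a log axis, with filled points for the 2 Adcy7 knockout libraries and open squares for the 2 Rosa libraries. Trib3 shows the widest gap, with 107 and 102 CPM in the knockout libraries against 9.20 and 8.27 CPM in the Rosa libraries, while Pycr1, Psat1, Sesn2, Shmt2 and Aldh18a1 lie lower in the knockout libraries.

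The remaining genes of this group are of several kinds, and all 5 rose. Asns, the enzyme that makes asparagine, was at 117 and 116 CPM in knockout libraries and 37.9 and 32.5 CPM in Rosa libraries, 3.35-fold higher (log2 fold change 1.74 ± 0.10, adjusted p = 1.96e-07). Its match to the response element lies just before the start. Stc2, a secreted glycoprotein, was at 19.3 and 20.7 CPM in knockout libraries and 3.50 and 5.18 CPM in Rosa libraries (log2 fold change 2.21 ± 0.18, adjusted p = 2.61e-06). Chac1, an enzyme that breaks down glutathione, was low throughout, at 7.16 and 5.81 CPM in knockout libraries and 3.18 and 2.50 CPM in Rosa libraries (log2 fold change 1.22 ± 0.22, adjusted p = 0.000998). Vldlr, a lipoprotein receptor, was at 3.63 and 4.45 CPM in knockout libraries and 2.07 and 2.06 CPM in Rosa libraries (log2 fold change 0.98 ± 0.24, adjusted p = 0.00675). Nupr1, a small stress-induced nuclear protein, was at 26.1 and 31.7 CPM in knockout libraries and 19.1 and 18.9 CPM in Rosa libraries (log2 fold change 0.62 ± 0.12, adjusted p = 0.00188). The windows of Asns, Chac1, Vldlr and Nupr1 hold the response element, and that of Stc2 does not.

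The order of the 33 genes by level differed between knockout and Rosa, in this group and in the others. Per kilobase of annotated exon, Atf4 stood highest in both groups, at 173 CPM per kb in the knockout and 79.8 CPM per kb in Rosa, followed in both by Eif4ebp1 (103 CPM per kb in the knockout and 44.7 CPM per kb in Rosa). Trib3 ranked 7 of 33 in the knockout at 49.2 CPM per kb, and 27 of 33 in Rosa at 4.11 CPM per kb. Atf5 ranked 3 in the knockout (91.3 CPM per kb) and 10 in Rosa (16.1 CPM per kb). Sesn2 ranked 17 in the knockout (14.8 CPM per kb) and 8 in Rosa (17.8 CPM per kb). Outside this group, the one-carbon enzyme gene Mthfd2 ranked 14 in the knockout and 6 in Rosa. The synthetase gene Mars1 ranked 15 in the knockout and 7 in Rosa.

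Of the 7 enzymes of serine, one-carbon and proline metabolism, 2 were higher, 2 were lower and 3 did not pass the test. These counts lie near the shares over all tested genes, of which 25.0% rose and 24.6% fell. The 3 steps that make serine from glycolytic phosphoglycerate went apart. Phgdh, the first enzyme, was at 136 and 111.5 CPM in knockout libraries and 36.9 and 36.0 CPM in Rosa libraries, 3.43-fold higher (log2 fold change 1.78 ± 0.12, adjusted p = 5.12e-07). Psat1, the next enzyme, was at 30.4 and 29.8 CPM in knockout libraries and 48.8 and 48.2 CPM in Rosa libraries, or 62.8% of the Rosa level (log2 fold change -0.67 ± 0.10, adjusted p = 0.00027). Psph, the last, was at 14.2 and 12.6 CPM in knockout libraries and 12.04 and 12.24 CPM in Rosa libraries, which did not pass the test (log2 fold change 0.16 ± 0.14, adjusted p = 0.363). The values of Phgdh and Psph carry counting limits. Phgdh has 8 processed pseudogenes at least 95% identical over 500 bases or more, which held 171 and 209 counts in knockout and 284 and 125 counts in Rosa libraries. Psph shares 452 of its 4329 exon bases with Cct6a on the opposite strand.

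Of the mitochondrial one-carbon enzymes, Mthfd2, which oxidises the folate-bound carbon unit, was at 121 and 114.5 CPM in knockout libraries and 96.9 and 97.8 CPM in Rosa libraries. It rose 1.22-fold (log2 fold change 0.29 ± 0.09, adjusted p = 0.0246), a call lost in 4 of 13 alternatives, among them the omission of the first knockout library (adjusted p = 0.0501), of the first Rosa library (0.243) and of the other Rosa library (0.154). Shmt2, which moves the carbon unit from serine to folate, was at 45.0 and 39.4 CPM in knockout libraries and 46.9 and 45.5 CPM in Rosa libraries and did not pass the test (log2 fold change -0.11 ± 0.11, adjusted p = 0.434). Of the 2 enzymes of proline synthesis, 1 fell. Aldh18a1, which starts proline synthesis from glutamate, was at 21.3 and 22.4 CPM in knockout libraries and 26.8 and 25.4 CPM in Rosa libraries and did not pass the test (log2 fold change -0.24 ± 0.11, adjusted p = 0.0994). Pycr1, the mitochondrial enzyme of the last step, was the lowest of the 33 genes per kilobase in the knockout. It fell to 1.00 and 0.502 CPM in knockout libraries, against 4.94 and 4.17 CPM in Rosa libraries (log2 fold change -2.54 ± 0.33, adjusted p = 7.82e-05). It was -3.18 without the first knockout library and -2.13 without the second, and it passed in all 13 alternatives. These levels stand for 72 and 31 deposited counts in knockout and 325 and 291 in Rosa libraries. Pycr1 was the only one of the 11 genes with TGATGNAA in its window that fell. The other 10 rose, and of the 17 genes whose window lacked it 10 rose, 1 fell and 6 did not pass. The 5 genes without a window all rose. Over all tested genes 25.0% rose and 24.6% fell. The genes were chosen with earlier results known, and a link between motif and direction was not tested.

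**Figure D2:**
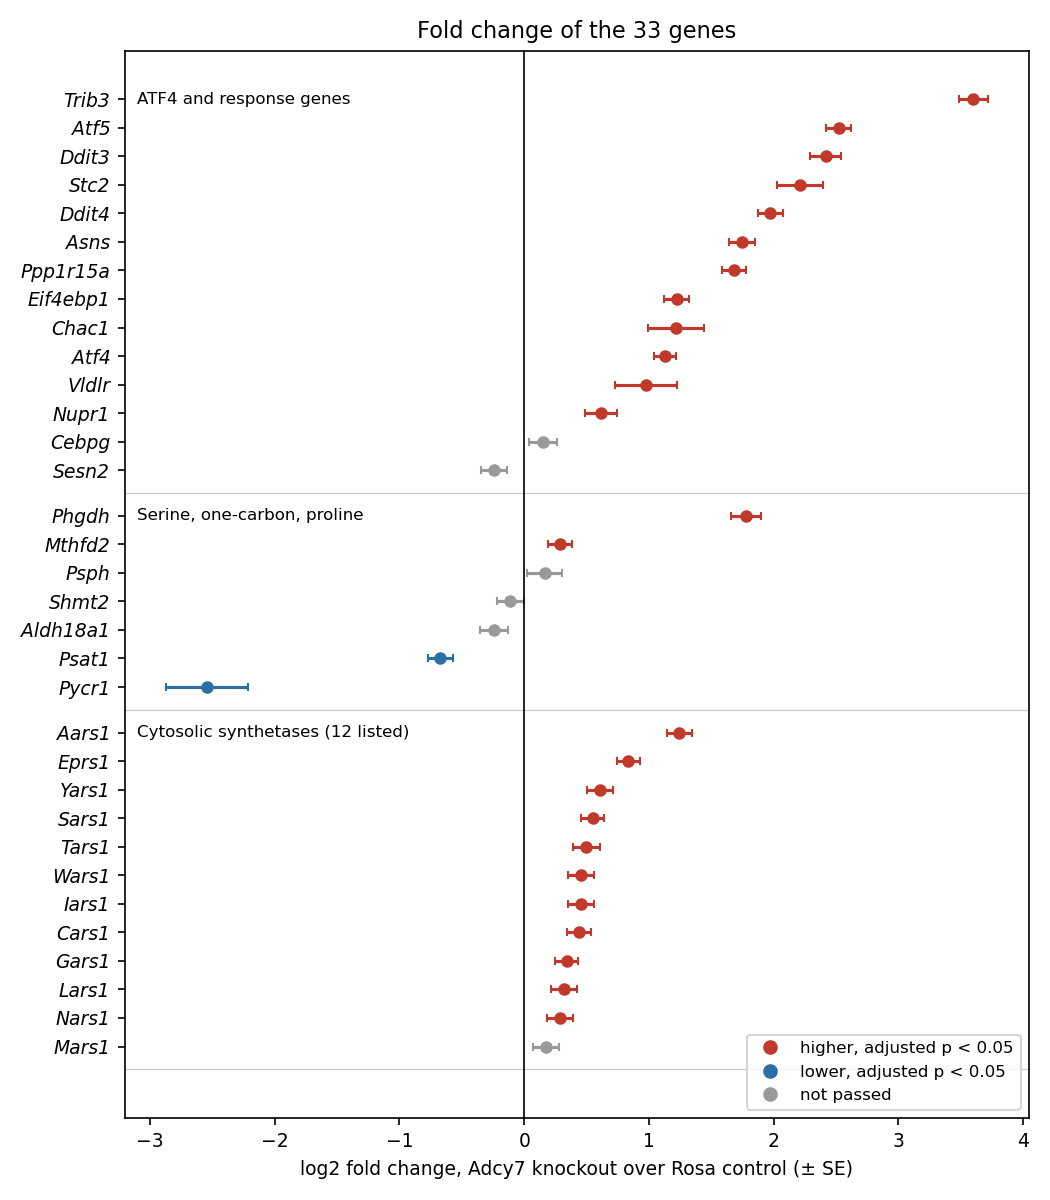
Log2 fold change of each of the 33 genes, Adcy7 knockout over Rosa control, with bars of 1 SE from the edgeR fit, coloured by the result of the test. Within ATF4 and its response 12 of 14 genes lie above 0 and pass, the metabolic enzymes spread from -2.54 to 1.78, and the synthetases lie within a narrower span from 0.18 to 1.24.

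The 12 cytosolic synthetases all had both knockout libraries above both Rosa libraries, against 37.4% of all tested genes. Of the 12, 11 rose, against 25.0% of all tested genes. The changes were smaller than those of ATF4 and its response: 1 synthetase, Aars1, passed 2-fold. Aars1, which charges alanine tRNA, was at 366 and 324 CPM in knockout libraries and 154 and 141 CPM in Rosa libraries (log2 fold change 1.24 ± 0.10, adjusted p = 2.23e-06). Its window holds the response element, as shown above. Eprs1, the joint enzyme for glutamate and proline, was at 118 and 128 CPM in knockout libraries and 70.0 and 69.6 CPM in Rosa libraries (log2 fold change 0.83 ± 0.09, adjusted p = 2.58e-05). Yars1, the tyrosine enzyme, was at 58.4 and 55.1 CPM in knockout libraries and 37.7 and 37.6 CPM in Rosa libraries (log2 fold change 0.61 ± 0.10, adjusted p = 0.000521). Sars1, the serine enzyme and the most abundant of the 12 per kilobase, was at 336 and 319.9 CPM in knockout libraries and 223 and 230.4 CPM in Rosa libraries (log2 fold change 0.55 ± 0.09, adjusted p = 0.000483). These 4 passed under every one of the 13 alternatives, and their adjusted p did not exceed 0.0109.

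The other synthetases that rose did so by 1.22-fold to 1.41-fold. Tars1, for threonine, was at 52.5 and 57.0 CPM in knockout libraries and 37.0 and 41.2 CPM in Rosa libraries, 1.41-fold higher (adjusted p = 0.00279). Wars1, for tryptophan, was at 75.5 and 68.8 CPM in knockout libraries and 52.5 and 53.9 CPM in Rosa libraries, 1.37-fold higher (adjusted p = 0.00354). Iars1, for isoleucine, was at 61.4 and 57.2 CPM in knockout libraries and 43.4 and 44.0 CPM in Rosa libraries, also 1.37-fold higher (adjusted p = 0.00352). In these 3 the gap between the groups was wider than the gap within either of them. Their calls were lost when the first Rosa library was left out. Cars1, for cysteine, was at 62.5 and 64.3 CPM in knockout libraries and 47.7 and 46.8 CPM in Rosa libraries (1.36-fold, adjusted p = 0.00298). It too passed under all 13 alternatives. Without either Rosa library it lay nearer the threshold than Aars1, Eprs1, Yars1 and Sars1 did in any alternative. Gars1, for glycine, was at 125 and 118 CPM in knockout libraries and 98.3 and 95.4 CPM in Rosa libraries (1.27-fold, adjusted p = 0.0108). Lars1, for leucine, was at 38.5 and 38.1 CPM in knockout libraries and 30.6 and 31.5 CPM in Rosa libraries (1.25-fold, adjusted p = 0.0277). These 3 did not overlap between the groups, and of all 15832 tested genes 3925 did. The calls for Gars1 and Lars1 were lost when either Rosa library was left out. Nars1, for asparagine, was at 137 and 163 CPM in knockout libraries and 120.0 and 128 CPM in Rosa libraries (1.22-fold, adjusted p = 0.0396). Mars1, for methionine, was at 78.9 and 70.0 CPM in knockout libraries and 69.2 and 64.1 CPM in Rosa libraries, close but not overlapping, and did not pass the test (log2 fold change 0.18 ± 0.10, adjusted p = 0.187). It passed in 1 of 13 alternatives, without the second knockout library (adjusted p = 0.0198), and its adjusted p ran up to 0.597 in the others. Without the first Rosa library 5 of the 12 passed, and without the other Rosa library 8. Nars1 passed in 8 of 13 alternatives. Its call was lost without the second knockout library and without either Rosa library. It was also lost with library totals alone (adjusted p = 0.0527) and without a low-count filter (0.121). Lars1 passed in 10 of 13 and also missed the threshold without a low-count filter (adjusted p = 0.0543). Over the alternatives the log2 fold change ran from 0.186 to 0.388 for Nars1 and from 0.272 to 0.354 for Lars1.

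**Figure D3:**
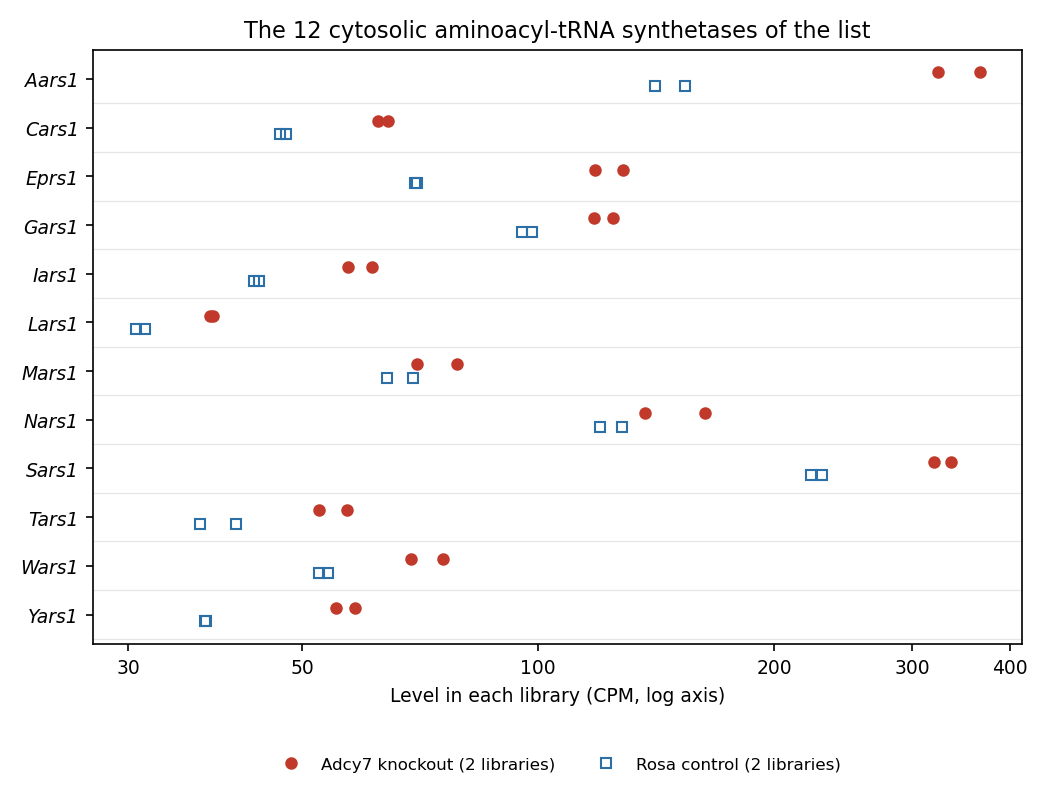
Level of each of the 12 cytosolic synthetases in each library, in CPM on a log axis, with filled points for the 2 Adcy7 knockout libraries and open squares for the 2 Rosa libraries. In each row both filled points lie to the right of both squares; the gap is widest for Aars1 and narrowest for Mars1.

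The 12 were listed with earlier results of these data known, so a contrast with other synthetases only describes the lists and was not tested. The 8 cytosolic synthetases outside the 12 did not show the same counts. Of these 8, 1 rose (Rars1), 4 fell and 3 did not pass, with a median log2 fold change of -0.27. With Tars3, a second threonine enzyme, and the 3 scaffold proteins of the multi-synthetase complex added, the list of 12 had 3 genes that rose and 6 that fell. Vars1, the valine enzyme, was at 53.6 and 50.2 CPM in knockout libraries and 134 and 119 CPM in Rosa libraries, or 41.5% of the Rosa level (log2 fold change -1.27 ± 0.10, adjusted p = 1.91e-06). Farsb, a subunit of the phenylalanine enzyme, was at 38.3 and 40.3 CPM in knockout libraries and 55.4 and 55.6 CPM in Rosa libraries (log2 fold change -0.48 ± 0.10, adjusted p = 0.00195). The scaffold proteins differed among themselves. Aimp1 was at 31.9 and 35.9 CPM in knockout libraries and 51.6 and 49.7 CPM in Rosa libraries (log2 fold change -0.57 ± 0.10, adjusted p = 0.000998), and Eef1e1 at 15.9 and 20.2 CPM in knockout libraries and 9.35 and 8.69 CPM in Rosa libraries (log2 fold change 1.01 ± 0.15, adjusted p = 0.000236). Summed over genes, the 12 synthetases held 1508 and 1463 CPM in knockout libraries and 983 and 983 CPM in Rosa libraries. The 8 others held 476 and 496 CPM in knockout libraries and 625 and 621 CPM in Rosa libraries. None of the 9 windows found for the list of other cytosolic synthetases and scaffold proteins held TGATGNAA.

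The mitochondrial synthetases, encoded by 17 tested genes, gave 2 that rose, 4 that fell and 11 that did not pass, with a median log2 fold change of -0.05. Of all tested genes, 25.0% rose and 24.6% fell. Vars2 (log2 fold change -0.86 ± 0.14, adjusted p = 0.000446) and Tars2 (-0.48 ± 0.12, adjusted p = 0.00804) fell, and Yars2 rose (0.59 ± 0.19, adjusted p = 0.0226). The call for Tars2 was lost without the first Rosa library (adjusted p = 0.0778). That for Yars2 was lost without a low-count filter, without the first knockout library and without the second Rosa library, with an adjusted p of up to 0.183. For valine, both the cytosolic and the mitochondrial enzyme fell. None of their 14 windows held the motif.

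The genes that set eIF2 phosphorylation and its reading, 16 in all, showed no common direction, with 4 higher, 4 lower and a median of 0.05. These counts lie near the shares over all tested genes, of which 25.0% rose and 24.6% fell. Eif2ak3, the kinase PERK of the endoplasmic reticulum, was at 13.6 and 14.8 CPM in knockout libraries and 19.77 and 19.99 CPM in Rosa libraries (log2 fold change -0.47 ± 0.12, adjusted p = 0.00857). That call was lost without the second Rosa library (adjusted p = 0.0703). Impact, which restrains the amino acid sensing kinase GCN2, was at 27.6 and 32.1 CPM in knockout libraries and 10.6 and 11.1 CPM in Rosa libraries (log2 fold change 1.47 ± 0.13, adjusted p = 4.17e-06). Gcn1, which activates that kinase, rose too (0.54 ± 0.10, adjusted p = 0.000837), and Eif2a, an initiation factor distinct from eIF2, fell (-1.04 ± 0.11, adjusted p = 2.1e-05). Phosphorylation itself was not measured.

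Of 21 other genes known to respond to ATF4, 19 were tested, and 13 rose, 2 fell and 4 did not pass, with a median of 0.54. The transporter genes held the largest changes. Slc7a11, the cystine carrier, was at 577 and 640.5 CPM in knockout libraries and 19.4 and 27.6 CPM in Rosa libraries, 26.1-fold higher (log2 fold change 4.70 ± 0.16, adjusted p = 3.45e-09). Its heavy chain Slc3a2 was at 885 and 806 CPM in knockout libraries and 179 and 176 CPM in Rosa libraries (2.27 ± 0.10, adjusted p = 1.84e-08). Slc6a9, a glycine carrier, was at 36.9 and 32.9 CPM in knockout libraries and 3.77 and 3.62 CPM in Rosa libraries (3.26 ± 0.15, adjusted p = 2.93e-08). Against these, Pck2, the mitochondrial phosphoenolpyruvate carboxykinase, fell to 32.4 and 34.7 CPM in knockout libraries, against 137 and 128 CPM in Rosa libraries (-1.97 ± 0.10, adjusted p = 5.22e-08). Chosen after their values were seen, Slc7a5 (0.16 ± 0.14, adjusted p = 0.354) and Slc1a5 (-0.001 ± 0.12, adjusted p = 0.996), carriers of large neutral amino acids and of glutamine, did not pass the test. The motif was in 8 of 18 windows (44.4%), for genes listed because they respond to ATF4.

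The further one-carbon and proline genes leaned the other way, with 10 of 19 lower, 4 higher and a median of -0.34. Oat, which links ornithine to proline, fell (log2 fold change -1.14 ± 0.10, adjusted p = 5.41e-06). The cytosolic and mitochondrial formyl-folate dehydrogenases went opposite ways. Aldh1l1, the cytosolic enzyme, was at 0.973 and 1.07 CPM in knockout libraries and 5.99 and 6.43 CPM in Rosa libraries (-2.59 ± 0.25, adjusted p = 9.9e-06). Aldh1l2, the mitochondrial enzyme, was at 2.49 and 2.27 CPM in knockout libraries and 0.213 and 0.529 CPM in Rosa libraries (2.67 ± 0.42, adjusted p = 0.000361). Its log2 fold change was 2.16 without the first Rosa library and 3.50 without the second, and it passed in all 13 alternatives. The 4 higher genes include Gldc, of the glycine cleavage system, with 12 and 14 counts in the knockout libraries and 0 in both Rosa libraries, so near the limit of counting that no fold is given. Its call was lost without a low-count filter and without either Rosa library, with an adjusted p of up to 0.161.

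The endoplasmic reticulum chaperones and sensors, which answer to ATF6 and XBP1 rather than chiefly to ATF4, fell in 11 of 19 cases and rose in 2, with a median of -0.29. Xbp1 was at 149 and 146 CPM in knockout libraries and 244 and 248 CPM in Rosa libraries (log2 fold change -0.73 ± 0.09, adjusted p = 5.41e-05). The chaperone cofactor Sdf2l1 (-1.25 ± 0.12, adjusted p = 6.97e-06), the disulfide isomerase Pdia6 (-1.09 ± 0.10, adjusted p = 3.68e-06) and the translocon subunit Sec61b (-0.77 ± 0.09, adjusted p = 5.39e-05) fell as well. The counts of the lists are given side by side, and no test between lists was made. Each is to be read against the 25.0% of all tested genes that rose and the 24.6% that fell.

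**Figure D4:**
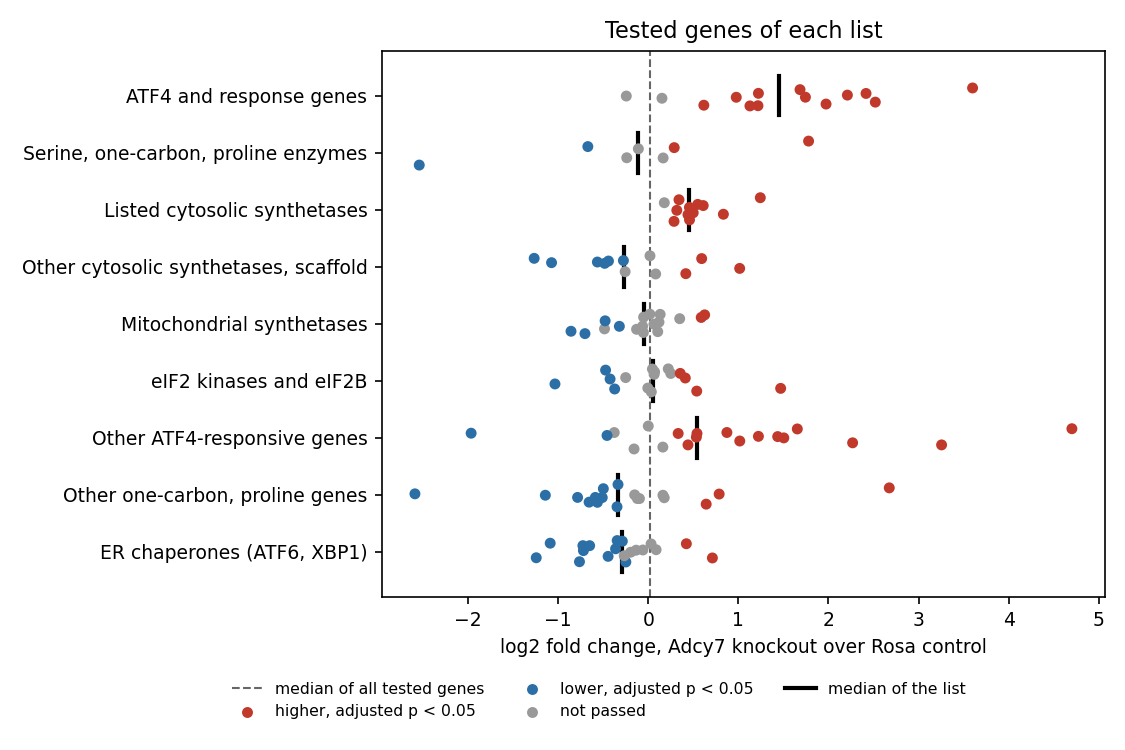
Log2 fold change, Adcy7 knockout over Rosa control, of each tested gene in the 3 groups of the 33 genes and in 6 related lists, 1 point per gene coloured by the result of the test, with a bar at the median of the list and a dashed line at the median of all tested genes. Medians run from 1.45 for ATF4 and its response to -0.34 for the other one-carbon and proline genes, in which Gldc, without counts in the Rosa libraries, is not drawn.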

How the data were processed

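The authors deposited 1 table of estimated counts (an expected count per Ensembl gene, in whole numbers), with no sign of normalization in its values. The submitters' processing notes list the tools fastp, HISAT2, StringTie and edgeR and the build GRCm39; versions and settings are not given in those notes as used here. Low counts (1 to 40) were multiples of 4 in 30.54% to 32.17% of genes. Counts spread evenly over 1 to 40 would give 25%, and the share to be found here without a step of 4 was not measured. The fragments behind a count are therefore unknown, and no counting interval is given. Knockout columns named KO3 were matched to samples by KO and replicate number; what the digit means is not given.

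Symbols and exon lengths came from an annotation of GRCm38, in which 55141 of 55401 IDs had a symbol and the synthetases carry older symbols such as Aars. Promoter windows are RefSeq's (GRCm38.p6). Near-identical copies are transcripts of that annotation aligned at 95% identity or more over at least 500 bases.

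Genes were filtered with filterByExpr (15832 kept), scaled by TMM and tested with edgeR 4.0.16 in R 4.3.3 (quasi-likelihood test, 2 residual degrees of freedom, common dispersion 0.0238), and p-values were adjusted by Benjamini-Hochberg over all tested genes. CPM were computed from the deposited totals, and the log2 fold changes with their SE come from the fit. The 33 genes and the other lists were chosen with earlier results of these data known. All 33 are named; of each other list, up to 4 tested genes with the smallest adjusted p are named. A few items that this rule or the motif search would name are not reported here. The 13 alternatives included limma 3.58.1 and DESeq2 1.42.0; an edgeR fit in its older form was added after seeing the data.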

Additional observations from a re-analysis of the deposited data

How the results depend on the processing

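The number of the 33 genes that rose was 25, and from 18 to 25 when 1 library was left out, 24 with library totals alone and 22 without a low-count filter. The 12 of 14 ATF4 genes that rose numbered 12 in every alternative. With the replicate block 25 of the 33 rose and 3 fell, and 1 ATF4 gene, Sesn2, fell (0 to 1 when a library was left out). Deviations of equally numbered libraries from their group means correlated by 0.015 over the tested genes. With 2 libraries per group this value cannot show whether equally numbered libraries share a mouse or culture. Over all genes 3952 rose and 3896 fell; with the replicate block these were 3932 and 3911, and without a low-count filter 2972 and 3195. Without a low-count filter 1 metabolic enzyme and 1 mitochondrial synthetase rose and 2 eIF2 genes fell; DESeq2 gave 1 mitochondrial synthetase that rose. Leaving out 1 library gave 5 to 11 listed synthetases that rose, 1 to 2 metabolic enzymes that rose, 3 to 6 other cytosolic synthetases that fell, 1 mitochondrial synthetase that rose and 2 to 4 that fell, 2 to 5 eIF2 genes that rose and 1 to 4 that fell, 1 to 3 other ATF4-responsive genes that fell, 6 to 8 other one-carbon genes that fell, and 1 to 2 chaperones that rose and 7 to 12 that fell. The log2 fold change of Shmt2 ran from -0.233 to 0.01 when a library was left out, with the change of sign without the second knockout library. Of the single-gene values under an alternative, 408 kept direction and side of the threshold, 17 lost it, 3 gained it and 1 reversed. The causes were not tested. Each arm holds 2 libraries; with 1 left out, the lone library is assumed to vary like the other group.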

Other observations

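Some genes that overlap a listed gene moved strongly themselves. C77080, which shares 30 exon bases with Yars1 on the opposite strand, had 6924 and 5652 counts in knockout and 480 and 503 in Rosa libraries. Il4i1, an amino acid oxidase gene that shares 82 exon bases with Atf5 on the opposite strand, had 233 and 326 counts in knockout and 25 and 10 in Rosa libraries. Exosc6, whose 1326 shared exon bases lie on the same strand as Aars1, had 2 and 1 counts in knockout and 42 and 50 in Rosa libraries. How the authors' counting divided reads over these shared bases was not tested.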
